A study of Homo sapiens with 10 samples.

Results

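The core autophagy genes are 33 genes whose proteins build the autophagosome, chosen by name from the machinery of starvation-induced autophagy and its cargo receptors. All 33 were found, among 19775 genes measured on Affymetrix expression arrays, and 85 probe sets read 1 of them alone. The study compared total RNA of microvesicles, the membrane-bound particles that cells shed into their medium, with total RNA of the K562 cells that released them. K562 is a human chronic myeloid leukaemia line with erythroid features that carries the BCR-ABL1 fusion. There were 5 microvesicle preparations and 5 cell preparations from 5 independent experiments, each on 1 array, with no treatment or genotype that differs between the groups. The preparations come from 1 cell line, and the labels do not say whether a microvesicle and a cell sample with the same number share a culture, so a p-value here covers only the spread among these 10 preparations.

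In autophagy a cup-shaped membrane grows around cytoplasm, closes into an autophagosome and fuses with the lysosome. A kinase complex around ULK1 starts the process, a lipid kinase complex around PIK3C3 marks the membrane, ATG2 and ATG9 proteins supply lipid, and a ubiquitin-like conjugation system attaches ATG8 proteins (the LC3 and GABARAP families) to the growing membrane. ATG4 proteases prepare and recycle the ATG8 proteins, and receptors such as SQSTM1 tether cargo to them. Erythroid cells are known to use autophagy to clear mitochondria as they mature.

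Each gene was read from its brightest probe set over the 10 arrays, as deposited log2 values. A gene passed the threshold at a limma adjusted p under 0.05, adjusted over all 19775 genes, and a change is the microvesicle mean minus the cell mean in log2 units, ± SE. Arrays were hybridised from equal amounts of RNA, so these values are shares of the RNA present, and fewer vesicles with a transcript cannot be told apart from less of it in each vesicle. Of the K562 markers measured, all 7 (GATA1, HBE1, HBZ, TFRC, KLF1, TAL1 and LMO2) lay above the median gene in both groups, at 6.45 to 12.1 in microvesicles and 7.06 to 12.3 in cells. Of 16 markers of T cells, B cells, monocytes, platelets, fibroblasts and epithelium, 7 lay above that median in microvesicles and 5 in cells, among them EPCAM, CD3D, KRT19 and COL1A1 (6.55, 8.01, 7.25 and 6.98 in microvesicles, 9.42, 8.18, 7.76 and 6.48 in cells). Control probe sets differed too. For ACTB the 3' probe set exceeded the 5' one by 3.12 ± 0.34 in microvesicles and 2.39 ± 0.15 in cells (SD, n = 5 each, 2-sided exact permutation p = 0.00794, the smallest possible, adjusted p = 0.0119 over 3 measures), for GAPDH by 0.619 ± 0.13 in microvesicles and 0.449 ± 0.064 in cells (exact permutation p = 0.0159, adjusted p = 0.0159), and those for 18S ribosomal RNA averaged 10.55 ± 0.38 in microvesicles and 12.15 ± 0.26 in cells (exact permutation p = 0.00794, adjusted p = 0.0119). Whether RNA quality had a part in the changes below was not tested.

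Of the 33 core autophagy genes, 16 fell in microvesicles, 3 rose and 14 did not pass. The falls made up 48.5% of the members, against 31.2% of all genes, and the rises 9.09%, against 35.5%. Falls of at least 2-fold numbered 11 among the members (19.8% of all genes) and rises of that size 2 (11.2% of all genes). The groups did not overlap for 14 members that were lower and 3 that were higher, against 26.1% and 23.8% of all genes. The median change of the members was -0.46, and that of all genes 0.20. Level bears on this comparison, because 32 of the 33 members had a mean of at least 5 over the 10 arrays and the brighter genes of the table were mostly lower in microvesicles. Among the 10118 genes with such a mean, 55.1% were lower and 15.2% higher, with a median change of -0.60. The members of that level were lower in 16 of 32 and higher in 2 of 32 (6.25%), so the share of falls lay near the background of genes of their level. With the test run on these 10118 genes alone, 3571 passed with falls of at least 2-fold and 596 with such rises. Of the 32 members 11 and 1 did so. The shares without overlap were not computed at this level.

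A second scaling reduced this dependence on level. Each array was fitted by loess against the mean array, after which 12 members were higher and 8 lower, with a median change of 0.046. Over all genes the shares were then 26.2% higher and 19.1% lower, and among genes with a mean of at least 5 they were 30.3% and 28.5%. The median change of all genes stood at 0.20 in the deposited values, 0.044 with arrays centred on their medians, 0.21 after a second quantile normalization and 0.14 after loess. Under these 4 scalings 6 members passed as lower each time, namely PIK3R4, RB1CC1, ATG14, UVRAG, ATG4A and ATG4C. Another 3 passed as higher each time, namely ULK2, ATG4D and OPTN. Neither ATG13 nor WIPI1 passed under any of the 4, and the calls of the other 22 depended on the scaling. The share of all genes that passed in the same direction under all 4 scalings was not computed. Whether these counts exceed that background is therefore not known.

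**Figure D1:**
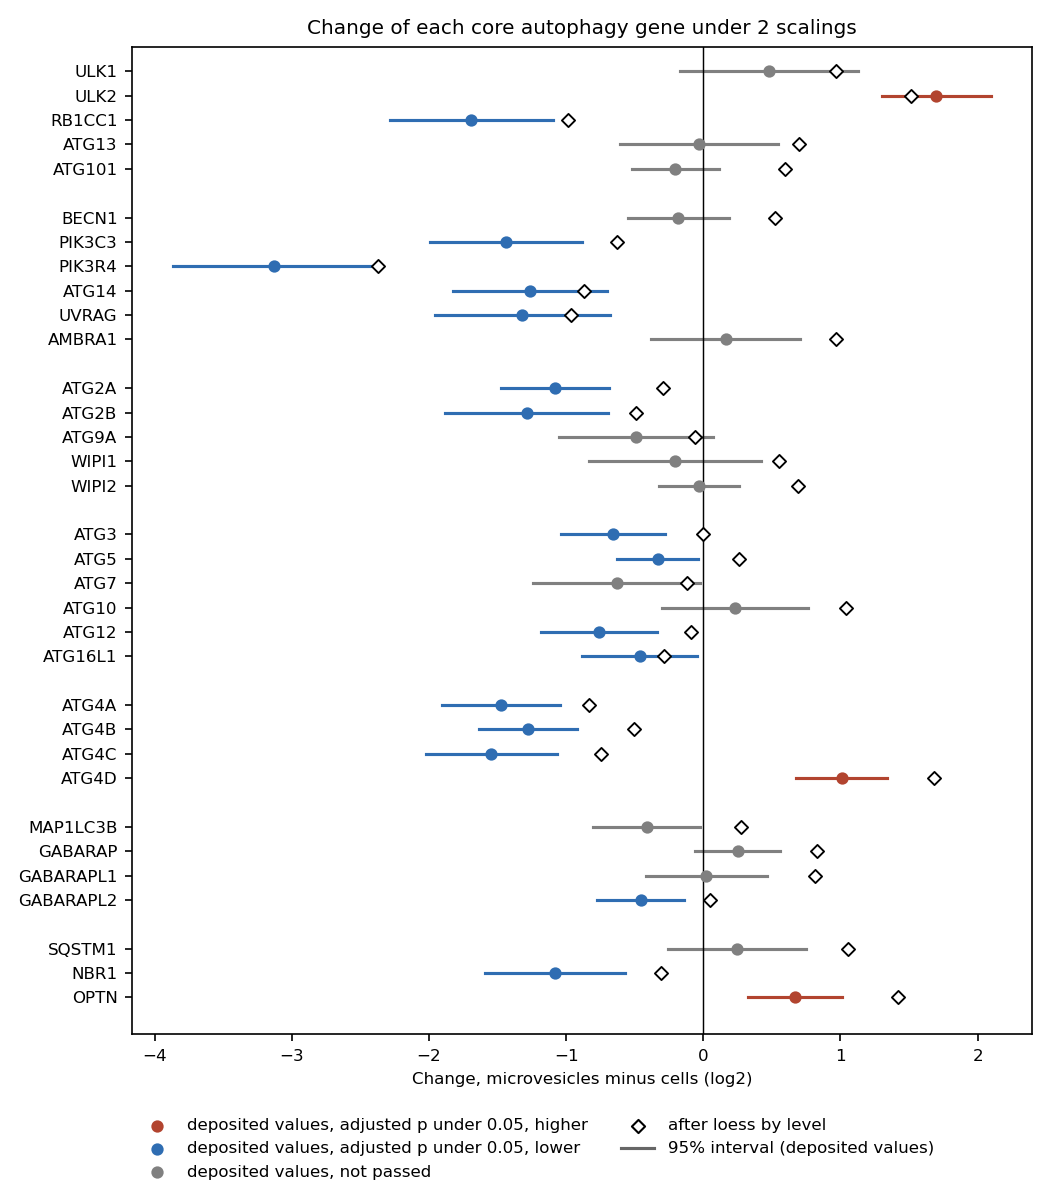
Change of each of the 33 core autophagy genes, microvesicles minus cells on the log2 scale, with the 95% interval from limma on the deposited values (filled circles and bars) and the change after loess by level (open diamonds), grouped by role from initiation at the top to receptors at the bottom. PIK3R4 lies farthest left under both scalings, at -3.13 and -2.37, while ULK2, ATG4D and OPTN lie right of 0 under both.

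**Figure D2:**
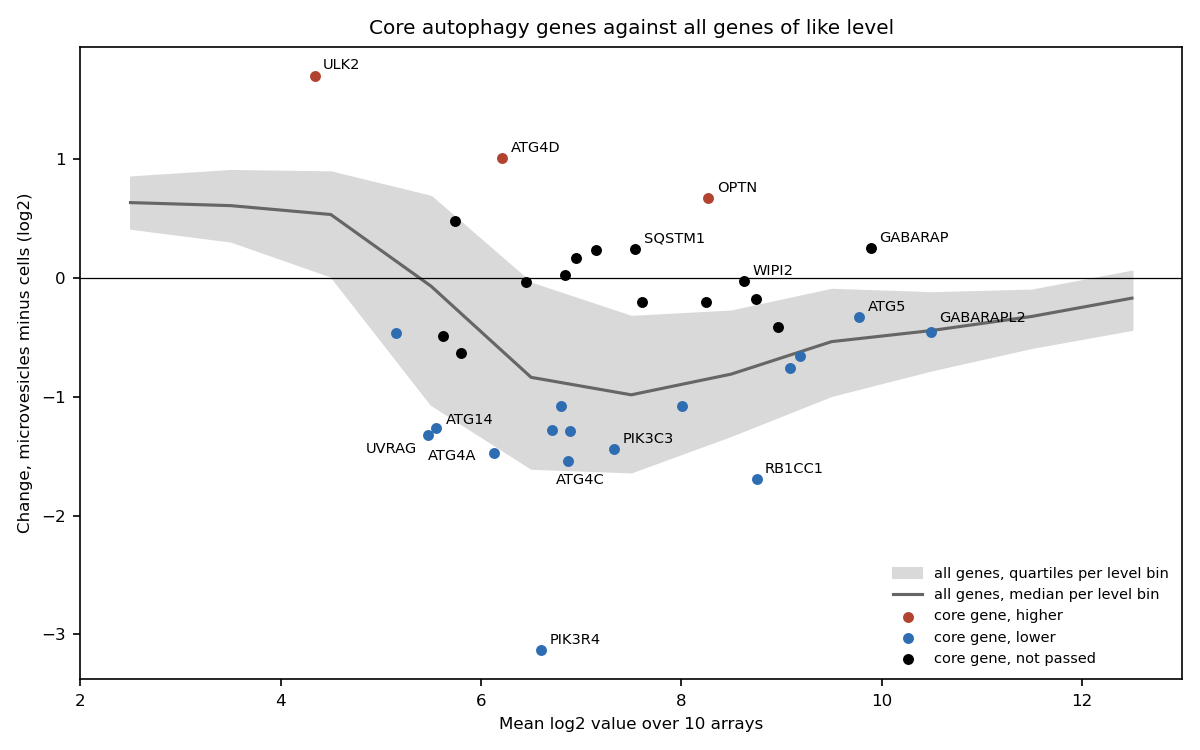
Change of each core autophagy gene (vertical axis, log2) against its mean log2 value over the 10 arrays (horizontal axis), with the median and quartiles of all genes in bins of 1 log2 unit, drawn up to a level of 13. Between levels of 7 and 8 the median change of all genes was -0.98. At their own levels, PIK3R4 and RB1CC1 are among the genes below the quartile band, and ATG4D, OPTN and GABARAP are among those above it.

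The initiation complex split. Its scaffold RB1CC1, which holds the kinase subunits together, fell 3.24-fold, the kinase gene ULK2 rose 3.25-fold, and the kinase gene ULK1 and the adaptor genes ATG13 and ATG101 did not pass. RB1CC1 read 7.95, 8.02, 8.85, 7.22 and 7.50 on the microvesicle arrays, against 9.70, 9.89, 9.91, 9.13 and 9.38 on the cell arrays. Every microvesicle array lay below every cell array, and the change was -1.69 ± 0.28 (limma adjusted p = 0.000189). Its other probe set, nearly as bright, gave -1.83 ± 0.27, and after loess the gene stood at -0.99 (limma adjusted p = 0.00663).

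ULK2 read 4.87, 5.43, 4.79, 5.58 and 5.28 on the microvesicle arrays, against 3.37, 3.70, 3.62, 3.30 and 3.45 on the cell arrays. The groups were far apart, with a change of 1.70 ± 0.19 (limma adjusted p = 7.98e-06; 1.51 after loess). In cells its mean of 3.49 lay under the median gene of 4.98, and no detection call tells whether this is signal or background, which leaves the size of the rise uncertain. It is the 1 member with a mean under 5, and genes with means between 4 and 5 had a median change of 0.53. Of its 4 probe sets 3 rose, by 0.62 to 1.70. The rise of 0.62, at a mean of 2.40, was near the median change of 0.63 of genes with means under 3. After loess it was 0.072 (limma adjusted p = 0.8 over all probe sets). The rise of 1.41, at a mean of 3.77, also passed after loess (1.06, limma adjusted p = 0.00292).

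ULK1 ran from 5.08 to 6.74 in microvesicles and 5.39 to 5.60 in cells, and the microvesicle arrays spanned the cell arrays on both sides. Its change was 0.48 ± 0.30 (limma adjusted p = 0.172), with a 95% interval of -0.17 to 1.13, and without microvesicles replicate 1 it passed at 0.71 (limma adjusted p = 0.0357). The interval for ATG13 was -0.61 to 0.54 and that for ATG101 -0.52 to 0.11. ATG101, which stabilises ATG13, averaged 7.51 ± 0.14 in microvesicles and 7.72 ± 0.15 in cells (SD, n = 5 each), and its direction turned with the scaling (0.60 after loess, limma adjusted p = 0.00571, and -0.36 with median centring, limma adjusted p = 0.048).

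**Figure D3:**
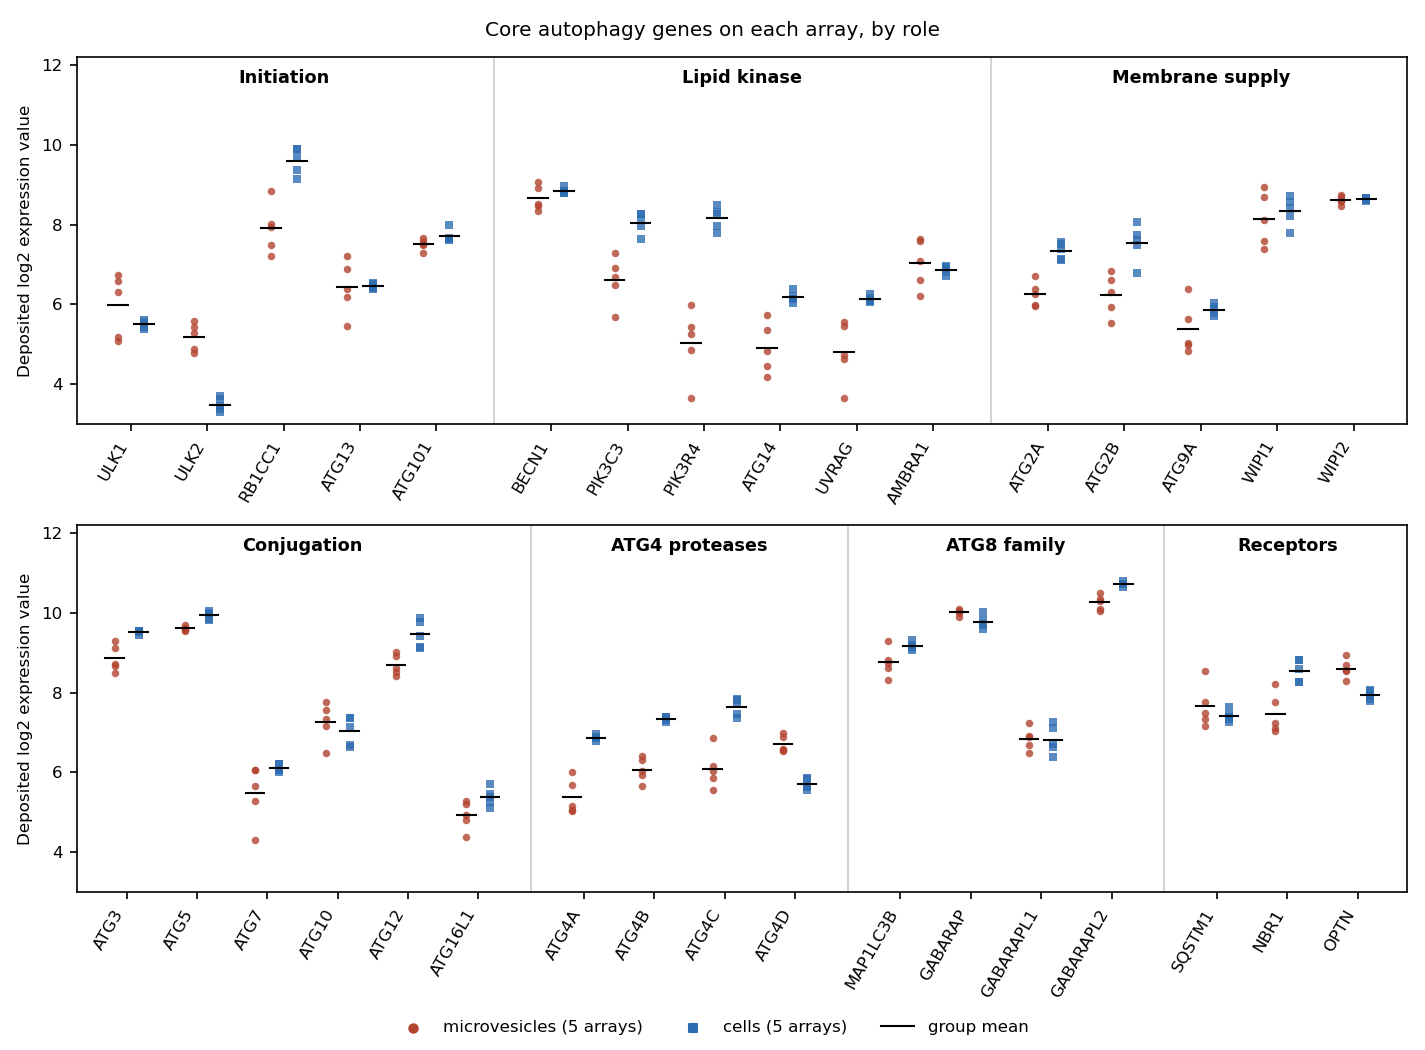
Deposited log2 expression value of each core autophagy gene on each array, by role, with microvesicles as circles on the left, cells as squares on the right and a black line at each group mean (n = 5 arrays each). The 3 ATG4 genes ATG4A, ATG4B and ATG4C have all microvesicle arrays below all cell arrays, and ATG4D the reverse.

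Genes of the lipid kinase complex held the largest fall of the list. This complex makes the phosphoinositide that recruits later factors, and 4 of its 6 genes fell at least 2-fold: PIK3R4, its pseudokinase-like regulatory subunit, PIK3C3, the catalytic subunit, ATG14, which directs the complex to autophagy, and UVRAG, the subunit that takes the place of ATG14 in endosomal traffic. BECN1, the scaffold that both versions share, and AMBRA1, a regulator that binds it, did not pass.

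PIK3R4 read 5.43, 5.25, 4.85, 3.66 and 5.99 on the microvesicle arrays, against 8.26, 7.97, 7.80, 8.49 and 8.32 on the cell arrays. The highest microvesicle value lay well below the lowest cell value, and microvesicles replicate 4 was the lowest of all. PIK3R4 averaged 5.04 ± 0.87 in microvesicles and 8.17 ± 0.28 in cells (SD, n = 5 each), a change of -3.13 ± 0.34 (8.78-fold lower, limma adjusted p = 7.72e-06), and it stood at -2.37 after loess (limma adjusted p = 0.000112). Leaving out any 1 array gave -3.37 to -2.79. The microvesicle mean lay just under the median gene of 5.07, and no detection call tells how far it exceeded background. The fall rests on 1 probe set. The other 2 had means of 2.62 and 2.19 over the 10 arrays and gave 0.53, which passed, and 0.46, which did not.

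PIK3C3 read 7.28, 6.50, 6.90, 5.68 and 6.69 on the microvesicle arrays, against 8.13, 8.25, 8.26, 7.65 and 7.96 on the cell arrays. Again the groups did not overlap, and the change was -1.44 ± 0.26 (limma adjusted p = 0.000387; -0.63 after loess, limma adjusted p = 0.0379). After the second quantile normalization it was -0.58 and no longer passed (limma adjusted p = 0.103). The gene has 7 probe sets, of which 3 fell and 2 rose, and both that rose were dim, with means under 5. Apart from the brightest, those that fell were dim too, with means of 4.42 and 3.51 and changes of -2.25 ± 0.23 and -0.93 ± 0.21.

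ATG14 read 4.19, 4.83, 5.37, 4.45 and 5.74 on the microvesicle arrays, against 6.13, 6.04, 6.13, 6.20 and 6.38 on the cell arrays. UVRAG read 4.74, 5.56, 5.47, 4.63 and 3.65 on the microvesicle arrays, against 6.25, 6.08, 6.10, 6.15 and 6.07 on the cell arrays. In both genes the cell arrays were close together and the microvesicle arrays spread over more than 1 log2 unit below them. ATG14 changed by -1.26 ± 0.26 (limma adjusted p = 0.00101; -0.87 after loess, limma adjusted p = 0.0161) and UVRAG by -1.32 ± 0.30 (limma adjusted p = 0.00187; -0.97 after loess, limma adjusted p = 0.0128). Their microvesicle means of 4.91 and 4.81 lay under the median gene, and each has 1 probe set.

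BECN1 averaged 8.66 ± 0.31 in microvesicles and 8.84 ± 0.076 in cells (SD, n = 5 each), with a change of -0.18 ± 0.17 (limma adjusted p = 0.352) and a 95% interval of -0.55 to 0.19. That interval leaves out a fall of the size seen for its partners PIK3C3 and PIK3R4. A less bright probe set of BECN1 fell by 0.71 (limma adjusted p = 0.011 over all probe sets). AMBRA1 averaged 7.03 ± 0.62 in microvesicles and 6.86 ± 0.10 in cells (SD, n = 5 each; change 0.16 ± 0.25, limma adjusted p = 0.571), while a second probe set of moderate level gave -1.46 ± 0.21 (limma adjusted p = 7.97e-05). After loess BECN1 stood at 0.53 and AMBRA1 at 0.97 (limma adjusted p = 0.0184 and 0.00506).

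Among the genes that supply and tag the membrane, the lipid transfer genes ATG2A and ATG2B fell, and ATG9A, WIPI1 and WIPI2 did not pass. ATG2A read 6.39, 5.97, 6.26, 6.71 and 5.99 on the microvesicle arrays, against 7.39, 7.12, 7.15, 7.55 and 7.51 on the cell arrays. Its groups did not overlap (change -1.08 ± 0.18, limma adjusted p = 0.000246). ATG2B ran from 5.53 to 6.85 in microvesicles and 6.78 to 8.05 in cells (change -1.29 ± 0.28, limma adjusted p = 0.00134). The small overlap lay between microvesicles replicate 4, the highest microvesicle array at 6.85, and cells replicate 4, the lowest cell array at 6.78. After loess ATG2A stood at -0.29 and ATG2B at -0.49, and neither passed (limma adjusted p = 0.208 and 0.157). A second ATG2B probe set, with a mean of 5.24, fell by 2.13 ± 0.32 without overlap (limma adjusted p = 8.81e-05 over all probe sets). It also passed after loess (-1.91, limma adjusted p = 0.000296). Dimmer ATG2B probe sets, at -0.074 and 0.022, did not pass.

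ATG9A, the lipid scramblase of the vesicles that seed the membrane, gave -0.49 ± 0.26 (limma adjusted p = 0.107). Microvesicles replicate 5 was the highest of the 10 arrays at 6.39, and without it ATG9A passed at -0.74 (limma adjusted p = 0.00344). WIPI2, which binds the phosphoinositide and recruits the conjugation complex, averaged 8.61 ± 0.11 in microvesicles and 8.64 ± 0.037 in cells (SD, n = 5 each), with a 95% interval of the change of -0.32 to 0.26. Probe sets of the WIPI genes disagreed. For WIPI2 the 2 brightest gave -0.030 and 0.10, and another of moderate level rose by 1.56 ± 0.25 (limma adjusted p = 0.000151 over all probe sets). For WIPI1 the brightest gave -0.21 ± 0.29 and the other, almost as bright, rose by 0.71 ± 0.21 (limma adjusted p = 0.0113).

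Of the 6 conjugation genes 4 fell, each by less than 2-fold. They were ATG3, the enzyme that hands ATG8 proteins to lipid, ATG12 and ATG5, which are joined into a conjugate, and ATG16L1, which places that conjugate on the membrane. ATG7, the activating enzyme of both arms, and ATG10, the enzyme that transfers ATG12, did not pass. ATG12 read 8.63, 8.93, 9.02, 8.42 and 8.52 on the microvesicle arrays, against 9.42, 9.86, 9.78, 9.11 and 9.16 on the cell arrays, with no overlap (change -0.76 ± 0.20, limma adjusted p = 0.00463). ATG3 averaged 8.86 ± 0.34 in microvesicles and 9.52 ± 0.043 in cells (SD, n = 5 each; change -0.66 ± 0.18, limma adjusted p = 0.00526). After loess ATG12 was at -0.089 and ATG3 at 0.0009, with limma adjusted p = 0.74 and 0.997. Less bright ATG12 probe sets disagreed. That with a mean of 7.01 gave -0.037 (limma adjusted p = 0.862 over all probe sets) and was higher after loess (0.77, limma adjusted p = 0.00244). That with a mean of 4.70 fell by 1.67 ± 0.35 (limma adjusted p = 0.00127), and after loess it stood at -1.72 (limma adjusted p = 0.0011).

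ATG5 read 9.61, 9.62, 9.71, 9.56 and 9.54 on the microvesicle arrays, against 9.83, 10.06, 9.995, 9.97 and 9.86 on the cell arrays. The arrays of each group lay within about 0.25 log2 units of each other, and the shift between the groups was small (-0.33 ± 0.14, limma adjusted p = 0.0436). The call of ATG5 was lost without microvesicles replicate 5 or any 1 cell array (changes of -0.36 to -0.30, limma adjusted p = 0.0532 to 0.11) and with the replicate number as a block (limma adjusted p = 0.103). Its 2 less bright probe sets fell by more, -1.43 ± 0.18 and -2.04 ± 0.32 (limma adjusted p = 2.47e-05 and 0.000148), and both also passed after loess (-0.66 and -1.99).

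ATG16L1 changed by -0.46 ± 0.20 (limma adjusted p = 0.0497), and its groups overlapped. Its call was lost without microvesicles replicate 1, 2 or 3 or cells replicate 1, 2, 4 or 5 (changes of -0.49 to -0.33, limma adjusted p = 0.0634 to 0.128), and its probe sets averaged to -0.067 (limma adjusted p = 0.681). ATG7 gave -0.63 ± 0.28 (limma adjusted p = 0.0633), and passed at -0.78 without microvesicles replicate 1 or 5 (limma adjusted p = 0.0288 and 0.0292). Its second brightest probe set fell by 0.68 ± 0.25 (limma adjusted p = 0.0305 over all probe sets). The mean of its 4 probe sets also passed as lower, at -0.56 (limma adjusted p = 0.0135). After loess ATG7 stood at -0.12 and its second brightest probe set at -0.44, and neither passed (limma adjusted p = 0.755 and 0.196). ATG10 gave 0.23 ± 0.25 (limma adjusted p = 0.412), and after loess it was higher at 1.04 (limma adjusted p = 0.00182).

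The 4 ATG4 protease genes all passed, 3 lower and 1 higher. ATG4A read 5.15, 5.07, 6.02, 5.69 and 5.04 on the microvesicle arrays, against 6.86, 6.87, 6.95, 6.88 and 6.79 on the cell arrays. ATG4B, the most active of the family towards LC3, read 5.94, 5.65, 6.31, 6.03 and 6.40 on the microvesicle arrays, against 7.33, 7.39, 7.28, 7.36 and 7.38 on the cell arrays. ATG4C read 6.86, 5.56, 6.03, 5.87 and 6.16 on the microvesicle arrays, against 7.71, 7.84, 7.82, 7.37 and 7.47 on the cell arrays. In these 3 genes every microvesicle array lay below every cell array, and the changes were -1.48 ± 0.20, -1.28 ± 0.17 and -1.54 ± 0.22 (limma adjusted p = 4.46e-05, 3.24e-05 and 7.32e-05). After loess they stood at -0.83, -0.50 and -0.75 (limma adjusted p = 0.00248, 0.026 and 0.00778), and ATG4B alone of the 3 did not pass after the second quantile normalization (-0.44, limma adjusted p = 0.0753). ATG4B rests on its brightest probe set, because the other 2 gave -0.48 ± 0.23 and 0.19 ± 0.21 and did not pass.

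ATG4D read 6.90, 6.59, 6.55, 6.98 and 6.56 on the microvesicle arrays, against 5.86, 5.66, 5.62, 5.84 and 5.56 on the cell arrays. Every microvesicle array lay above every cell array, opposite to its 3 relatives. ATG4D averaged 6.72 ± 0.21 in microvesicles and 5.71 ± 0.13 in cells (SD, n = 5 each), a change of 1.01 ± 0.16 (2.01-fold higher, limma adjusted p = 0.000123), and it stood at 1.68 after loess (limma adjusted p = 3.09e-06). Genes of its level, between 6 and 7, had a median change of -0.84. ATG4A, ATG4C and ATG4D each have 1 probe set, so no second reading of them exists here.

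The ATG8 genes, whose products coat the autophagosome, had changes of less than 2-fold in the deposited values. GABARAPL2 fell, and MAP1LC3B, GABARAP and GABARAPL1 did not pass. GABARAPL2 read 10.30, 10.04, 10.10, 10.51 and 10.36 on the microvesicle arrays, against 10.71, 10.64, 10.72, 10.80 and 10.72 on the cell arrays, with a narrow gap between the groups (change -0.46 ± 0.15, limma adjusted p = 0.0149; 0.046 after loess, limma adjusted p = 0.836). GABARAP read 10.06, 9.89, 10.001, 10.05 and 10.09 on the microvesicle arrays, against 9.60, 9.73, 9.82, 10.01 and 9.69 on the cell arrays. Microvesicle values lay within the upper part of the cell range or just above it, with a change of 0.25 ± 0.14 (limma adjusted p = 0.135) and a 95% interval of -0.059 to 0.56.

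MAP1LC3B, the gene of the most widely used autophagosome marker, read 8.62, 8.32, 8.75, 9.30 and 8.82 on the microvesicle arrays, against 9.32, 9.18, 9.18, 9.11 and 9.07 on the cell arrays. Of its microvesicle arrays 4 lay below all cell arrays and replicate 4 lay among them (change -0.41 ± 0.18, limma adjusted p = 0.0586), and without microvesicles replicate 4 it passed at -0.55 (limma adjusted p = 0.00763). Its second probe set gave -0.50 ± 0.18 (limma adjusted p = 0.0268 over all probe sets). GABARAPL1 gave 0.023 ± 0.20, with a 95% interval of -0.42 to 0.46. A brighter probe set that is annotated with both GABARAPL1 and GABARAPL3 was left out of the test of genes and gave -0.33 ± 0.22 (limma adjusted p = 0.192 over all probe sets). After loess GABARAP and GABARAPL1 were higher (0.83 and 0.82, limma adjusted p = 0.000531 and 0.00433), whereas MAP1LC3B at 0.27 and GABARAPL2 did not pass.

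The 3 cargo receptors went different ways. OPTN, a receptor for ubiquitin-tagged mitochondria and bacteria, rose, NBR1, a receptor for ubiquitin-tagged protein aggregates, fell, and SQSTM1, the best known receptor for such aggregates, did not pass. OPTN read 8.29, 8.56, 8.69, 8.94 and 8.54 on the microvesicle arrays, against 7.93, 7.80, 8.08, 8.04 and 7.84 on the cell arrays. All microvesicle arrays were above all cell arrays (change 0.67 ± 0.16, 1.59-fold higher, limma adjusted p = 0.00274; 1.42 after loess). A second, dimmer probe set of OPTN went the other way, at -1.17 ± 0.48 (limma adjusted p = 0.047 over all probe sets), and the mean of both was -0.25 and did not pass (limma adjusted p = 0.445). The rise therefore holds for the brighter probe set only.

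NBR1 read 8.22, 7.10, 7.76, 7.04 and 7.24 on the microvesicle arrays, against 8.58, 8.82, 8.83, 8.26 and 8.28 on the cell arrays. The highest microvesicle value came close to the lowest cell value without reaching it (change -1.08 ± 0.24, limma adjusted p = 0.00157; -0.31 after loess, limma adjusted p = 0.227). Its second brightest probe set fell too, by 0.94 ± 0.21 without overlap (limma adjusted p = 0.00203 over all probe sets). After loess that probe set stood at -0.71 (limma adjusted p = 0.015). With its 4 probe sets averaged NBR1 was at -0.36 and did not pass (limma adjusted p = 0.0649). That average includes dim probe sets with means of 3.07 and 2.69, which did not pass. SQSTM1 read 7.16, 7.50, 7.76, 8.55 and 7.35 on the microvesicle arrays, against 7.40, 7.27, 7.44, 7.64 and 7.33 on the cell arrays. Microvesicles replicate 4 was the highest of the 10 arrays, and the change was 0.25 ± 0.23 (limma adjusted p = 0.355) with a 95% interval of -0.26 to 0.75. After loess SQSTM1 was higher at 1.05 (limma adjusted p = 0.00438). Of its 5 probe sets only 1 passed in the deposited values, a less bright one at -0.67 ± 0.16 (limma adjusted p = 0.00338 over all probe sets). The mean of the probe sets was 0.022 (limma adjusted p = 0.877).

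The probe sets of a gene often disagreed. Of the 85 probe sets read by themselves, 29 were lower and 14 higher, against 27.0% and 35.4% of all probe sets. Among the 55 with a mean of at least 5, 25 were lower and 4 higher, and among the 30 dimmer ones 4 were lower and 10 higher. This split follows level over the whole table. Of all genes with a mean of at least 5, 55.1% were lower and 15.2% higher, and dimmer genes had median changes of 0.53 to 0.63 per level bin. The shares of all probe sets at these levels were not computed. Of the 22 members with more than 1 probe set, 6 had at least 1 probe set that rose and 1 that fell, namely BECN1, PIK3C3, PIK3R4, AMBRA1, ATG10 and OPTN, against 13.5% of all such genes. For BECN1, PIK3C3, PIK3R4, AMBRA1 and ATG10 the probe sets that rose had means under 5. PIK3C3 also had probe sets of such a level that fell, with means of 4.42 and 3.51. Probe sets of 1 gene can read different transcripts or parts of a transcript, and which parts these read was not analysed here.

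**Figure D4:**
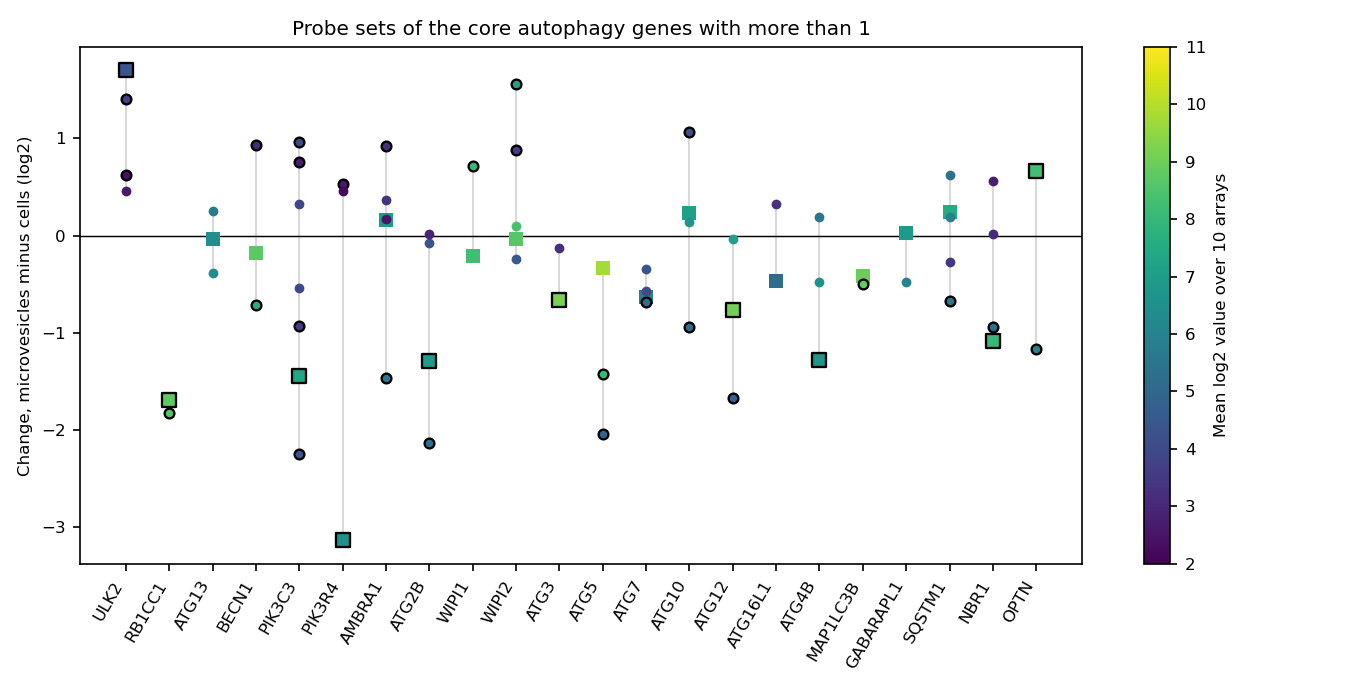
Change of every probe set, microvesicles minus cells on the log2 scale, for the 22 core autophagy genes with more than 1, coloured by the mean log2 value over the 10 arrays. Squares are the brightest probe set of a gene, used in the test of genes, circles are the others, and a black outline means an adjusted p under 0.05 over all probe sets. Both RB1CC1 probe sets lie below 0, while the only changes above 1 are those of ULK2, WIPI2 and ATG10.

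Microvesicle preparations varied more than cell preparations. The SD was larger in microvesicles for 28 of the 33 members, with medians of 0.44 in microvesicles and 0.13 in cells, close to those of all genes (0.45 and 0.15). The median over the members was 7.08, 6.69, 6.91, 6.90 and 7.21 on the microvesicle arrays, against 7.65, 7.62, 7.62, 7.56 and 7.49 on the cell arrays. All microvesicle medians lay below all cell medians in the deposited values. After loess they were 7.32, 7.09, 7.19, 7.32 and 7.69 in microvesicles, against 7.22, 7.20, 7.21, 7.17 and 7.13 in cells, and the groups overlapped. Microvesicles replicate 4 was the highest microvesicle array for 12 members and the lowest for 7, so no single array was low or high throughout.

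Further genes of the pathway were read from 4 lists. Of 61 such genes measured, 26 fell and 12 rose (median change -0.27), where 31.2% of all genes were lower and 35.5% higher, and 55.1% and 15.2% of genes with a mean of at least 5. After loess 10 of the 61 were lower and 18 higher, against 19.1% and 26.2% of all genes. Autophagosome-lysosome fusion genes had 9 falls and 0 rises of 12 (median -0.72; 3 lower and 2 higher after loess). All 12 had a mean of at least 5, a level at which 55.1% of genes were lower with a median change of -0.60. The largest fall was that of VPS41, a subunit of the tethering complex that docks vesicles at lysosomes (-1.87 ± 0.21, limma adjusted p = 9.92e-06; -1.25 after loess, and -1.44 as the mean of its 3 probe sets). EPG5, another tether, fell by 1.37 ± 0.27 (limma adjusted p = 0.000739; -0.82 after loess) with groups that overlapped, and its 7 probe sets averaged -0.35. The change was above 0 for 0 of the 12 genes in the deposited values, for 5 after loess and for 6 after the second quantile normalization. With the probe sets of each gene averaged, 5 of the 12 passed as lower and 0 as higher, with a median change of -0.22. Over all 19775 genes 5880 were then lower and 8080 higher.

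Of 16 further selective receptors 7 fell and 3 rose (median -0.53; 2 lower and 4 higher after loess). The share of falls lay between the 31.2% of all genes and the 55.1% of genes with a mean of at least 5. The endoplasmic reticulum receptors CCPG1 and SEC62 fell by 2.41 ± 0.33 and 1.78 ± 0.24, and after loess they stood at -2.46 and -1.05 (limma adjusted p = 7.84e-05 and 0.00231). CCPG1 averaged 3.50 in microvesicles, below the median gene. The mitophagy receptor FKBP8 and the mitophagy kinase PINK1 rose by 0.92 ± 0.18 and 0.83 ± 0.22 (limma adjusted p = 0.000637 and 0.00478). Averaged over their probe sets they were at 0.87 and 0.36.

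Among 14 other genes of the core families and their partners 3 fell and 4 rose (median 0.12; 3 lower and 5 higher after loess), both smaller shares than the 31.2% and 35.5% of all genes. TMEM41B, a lipid scramblase of the endoplasmic reticulum that early autophagosomes need, read 6.55, 6.58, 6.56, 6.25 and 5.87 on the microvesicle arrays, against 9.05, 8.96, 8.89, 8.86 and 9.10 on the cell arrays. The gap between the groups exceeded 2 log2 units (change -2.61 ± 0.17, limma adjusted p = 1.77e-07; -1.81 after loess). NRBF2, a further subunit of the PIK3C3 complex, fell by 1.79 ± 0.24 (limma adjusted p = 4.76e-05; -1.06 after loess, limma adjusted p = 0.00251). RUBCNL, a regulator that binds the complex, and BCL2, which holds BECN1 back, rose by 1.33 ± 0.27 and 0.94 ± 0.22. The probe sets of RUBCNL averaged 1.11 and the 4 of BCL2 0.19.

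The 19 upstream regulators had 7 falls and 5 rises (median 0.12; 2 lower and 7 higher after loess), near the 31.2% of falls and below the 35.5% of rises among all genes. The nutrient-sensing kinase MTOR, which restrains ULK1, and PRKAA1, a catalytic subunit of the energy sensor AMPK that activates it, fell by 1.28 ± 0.17 and 1.92 ± 0.25 (limma adjusted p = 4.62e-05 and 3.41e-05). After loess MTOR stood at -1.09 and PRKAA1 at -1.21. PRKAG2, a regulatory subunit of AMPK, rose by 0.98 ± 0.20, and TFEB, the transcription factor of lysosomal and autophagy genes, rose by 0.97 ± 0.24 (limma adjusted p = 0.000956 and 0.00305; 1.51 after loess for TFEB), with groups that overlapped for TFEB. Averaged over the probe sets of each gene, the changes were smaller, at -0.44 for MTOR, -1.67 for PRKAA1, 0.20 for PRKAG2 and 0.46 for TFEB.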

How the data were processed

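RNA of 5 microvesicle and 5 cell preparations of K562 was measured on 10 arrays. The authors deposited RMA output on the log2 scale, with 1 value for each probe set and array (RMA per the submitters' processing notes). RMA's settings were not found in the labels. The spread of the values differs between groups (SD over probe sets 1.89 to 1.99 in microvesicles, 2.33 to 2.36 in cells), there is no detection call, and the number of arrays limits the precision.

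The 54630 probe sets were named through the platform annotation and the RefSeq gene table: 41091 had 1 gene (41037 of them named through the gene number), 1801 several and 11721 none listed, beside 17 controls. A gene was read from its brightest probe set with 1 gene, which gave 19775 genes and no dim filter. Groups were compared by limma 3.58.1 in R 4.3.3 (lmFit, eBayes, 2-sided, Benjamini-Hochberg over all genes). All 33 members are named. From each further list the 2 largest rises and 2 largest falls that passed are named, or fewer where fewer passed. The members, lists and scalings were chosen with earlier results of these data known. The share of calls among genes with a mean of at least 5 was added after the present results were seen. On simulated data with 19775 genes the test recovered 2 of 50 genes changed by 0.5 and 25 of 50 changed by 1. It recovered 46 of 50 changed by 2 and 50 of 50 changed by 3, with 24 false calls. Recovery with as many changed genes as passed in the deposited values (35.5% higher and 31.2% lower) was not tested. Loess used a span of 0.4. Same-numbered microvesicle and cell arrays had correlations of deviations from -0.028 to 0.12. For 3 of the 5 microvesicle arrays the same-numbered cell array correlated best. These values do not settle whether the numbers are pairs. The main test took no pairs, and a fit with the replicate number as a block was the alternative. Some markers of the fixed lists are not reported here.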

Additional observations from a re-analysis of the deposited data

Results flagged for a closer look

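In 1 of 66 groups of 5 arrays (33 core autophagy genes in 2 groups) an array stood apart. ATG101 read 7.98 in cells replicate 4, against 7.67 in the next highest cell array, a gap of 0.863 of the range of the group, above the critical value of 0.71 (Dixon's test at 95%). Chance flags about 1 group in 20.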

How the results depend on the processing

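Results turned mostly on the scaling. Of the core autophagy genes, 11 were higher and 6 lower after the second quantile normalization, and 12 and 8 after loess, against 3 and 16 in the deposited values. Their median change was then -0.024 and 0.046, against -0.46. Of all 19775 genes, 5230 were higher and 3270 lower after the second quantile normalization, and 5173 and 3773 after loess. In the deposited values 7015 of all genes were higher and 6164 lower. Of the other pathway genes 19 were higher and 9 lower after quantile normalization and 10 lower after loess. Of the members' probe sets 17 were lower after quantile normalization, 24 were higher after loess, and 4 were higher among probe sets with a mean of at least 5. The shares of all probe sets under these settings were not computed. Signs turned after quantile normalization and loess for ATG13 (0.71 and 0.70), ATG101 (0.69 and 0.597), BECN1 (0.53 and 0.53), WIPI1 (0.61 and 0.55), WIPI2 (0.71 and 0.69), ATG5 (0.18 and 0.26) and MAP1LC3B (0.26 and 0.27), and after loess alone for ATG3 (0.00090) and GABARAPL2 (0.046). Averaging the probe sets of each gene turned the sign for BECN1 (0.014), WIPI1 (0.25), WIPI2 (0.45), GABARAPL1 (-0.23) and OPTN (-0.25). GABARAPL1, near 0, also turned with median centring (-0.14) and array weights (-0.0865). The cause of these moves was not tested.

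Leaving out 1 array at a time gave 3 to 4 rises, 14 to 17 falls and a median change of -0.52 to -0.34 among the core genes. Over all 19775 genes these fits gave 5928 to 7162 rises and 5736 to 6249 falls. Signs turned there for 3 core genes near 0, ATG13 (-0.23 to 0.21), WIPI2 (-0.062 to 0.0089) and GABARAPL1 (-0.088 to 0.13). With the replicate number as a block 3 members rose and 15 fell, and ATG5 alone changed its call. That fit gave 6915 rises and 6059 falls over all genes. Dim values under the median gene limit the size of changes, and 4 of the 16 members that fell had such a mean in microvesicles.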
